A study of Mus musculus with 24 samples.

Results

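The 8 genes described here encode parts of the NADPH oxidases and the nitric oxide synthases: Nox4, Cybb, Cyba, Ncf1, Ncf4, Rac2, Nos1 and Nos3. They were found by symbol among the 30153 gene identifiers of the deposited table, and all 8 had 1 matching identifier. RNA was measured as TPM (transcripts per 1e+06) in 24 libraries of polyadenylated RNA, 1 library per animal and 4 animals per group, from samples that the labels give as kidney of C57/BL6 mice. The groups were aged Hap-I mice on western diet, adult Hap-I mice on western diet, adult Hap-II mice on western diet, aged Hap-I mice, adult Hap-I mice and adult C57 mice. Hap-I and Hap-II name haplotypes I and II of a human angiotensin receptor type 1 that the series title describes as overexpressed in hypertensive mice. The promoter of that transgene, the number of founder lines, the sex and exact age of the animals, and the diet of the groups labelled without western diet were absent from the sources used here.

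NADPH oxidases move electrons from NADPH across a membrane onto oxygen and so make superoxide or hydrogen peroxide. The phagocyte enzyme needs a membrane pair, CYBB and CYBA, and cytosolic subunits that join it on activation. NOX4 also pairs with CYBA but works without those cytosolic subunits, and it is abundant in kidney proximal tubule. Nitric oxide synthases make nitric oxide from arginine, the neuronal form NOS1 in neurons and in the macula densa, and the endothelial form NOS3 in vessel walls. Superoxide reacts with nitric oxide, which is why both families are studied together in hypertension.

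The promoters of 4 members are shown because these genes have the most contrasting levels below: Nox4 and Cyba above 40 TPM in every kidney library, and their phagocyte counterparts Cybb and Ncf1 at a few TPM. The sequences run 5′ to 3′ on the gene's strand, from 250 bases before to 50 bases after the start site, and are from RefSeq on GRCm38.p6. The table held 5 of the 8 members. Capitals mark GGGCGG, the core of the GC box, and GAGGAA, which holds the core bound by the myeloid factor PU.1, each searched on both strands, where they read CCGCCC and TTCCTC. The lines below give the gene, its region, its strand and its sequence.

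Nox4 promoter, chr7:87246399-87246698, plus strand: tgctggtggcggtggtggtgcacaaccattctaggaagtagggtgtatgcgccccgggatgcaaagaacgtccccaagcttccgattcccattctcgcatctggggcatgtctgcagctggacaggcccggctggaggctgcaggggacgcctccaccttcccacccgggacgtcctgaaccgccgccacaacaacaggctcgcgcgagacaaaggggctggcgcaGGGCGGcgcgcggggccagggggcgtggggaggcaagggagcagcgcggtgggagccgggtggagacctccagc
Cybb promoter, chrX:9469275-9469574, minus strand: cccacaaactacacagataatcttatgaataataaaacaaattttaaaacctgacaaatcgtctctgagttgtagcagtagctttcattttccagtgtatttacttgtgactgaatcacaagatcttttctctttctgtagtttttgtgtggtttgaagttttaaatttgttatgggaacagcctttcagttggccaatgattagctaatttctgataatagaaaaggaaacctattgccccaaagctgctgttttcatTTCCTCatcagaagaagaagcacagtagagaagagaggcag
Cyba promoter, chr8:122432891-122433190, minus strand: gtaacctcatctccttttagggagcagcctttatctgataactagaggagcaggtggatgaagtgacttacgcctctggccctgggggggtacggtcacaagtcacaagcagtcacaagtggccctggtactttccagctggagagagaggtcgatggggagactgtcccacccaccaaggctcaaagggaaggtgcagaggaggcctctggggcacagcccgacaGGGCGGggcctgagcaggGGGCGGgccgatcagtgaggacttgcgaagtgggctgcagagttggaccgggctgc
Ncf1 promoter, chr5:134229576-134229875, minus strand: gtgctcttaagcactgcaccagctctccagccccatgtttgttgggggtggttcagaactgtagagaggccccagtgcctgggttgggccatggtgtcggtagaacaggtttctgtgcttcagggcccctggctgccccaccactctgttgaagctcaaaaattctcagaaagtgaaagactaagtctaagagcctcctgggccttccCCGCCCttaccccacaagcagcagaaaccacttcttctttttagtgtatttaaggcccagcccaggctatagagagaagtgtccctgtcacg

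GGGCGG or CCGCCC was present in the windows of Nox4, Cyba and Ncf1, and in 35.7% of the 32851 promoters in the table. GAGGAA or TTCCTC was present in those of Cybb and Nos1, and in 28.3% of all promoters. The pair of letters CG occurred 24 times in the Nox4 window, 9 times in that of Cyba, 3 times in that of Ncf1 and once in that of Cybb, against a median of 7 over all promoters.

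Facts of the whole series bear on every value. The 16 libraries of the western diet and C57 groups carried kidney transcripts, with summed proximal tubule markers (10 genes) of 1620 to 6443 TPM and summed neuron markers (6 genes) of 0.607 to 5.13 TPM. The 8 libraries of the Hap-I groups without western diet did not match their kidney label: the same sums were 8.40 to 26.8 TPM and 3521 to 4495 TPM. They are called the neuron-rich libraries here, and no comparison that includes them can separate diet from tissue content. TPM keep no read totals, so the depth is unknown and no counting interval is given. Libraries listed 15975 to 18761 genes above 0. Transcripts of the mitochondrial genome took 21.2% to 35.7% of TPM in the western diet groups and 12.4% to 16.9% in C57 adults. Summed Y-linked genes lay between 0.485 and 40.2 TPM in the western diet groups, between 35.5 and 70.4 TPM in the neuron-rich libraries and between 0.730 and 0.954 TPM in C57 adults. All 4 C57 libraries were low in Y-linked genes, as were 2 aged Hap-I, 1 adult Hap-I and 2 Hap-II libraries on western diet, so a fit with these genes as a covariate was also made. Transgene and diet differ together between western diet and C57 groups and cannot be told apart. Library titles follow the same split. Those of the western diet groups begin with A, B or C, and those of the C57 and neuron-rich libraries with S. Whether processing differed along that split was not tested.

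Nox4, the oxidase of tubule cells, was among the most abundant genes of the kidney libraries. Its gene lies at chr7:87246096-87398710 on the plus strand of GRCm38. It had 141, 234, 149 and 49.6 TPM in the 4 aged Hap-I mice on western diet, 202, 95.2, 108 and 43.8 TPM in diet-fed adult Hap-I mice, 265, 181, 72.8 and 110 TPM in diet-fed adult Hap-II mice, and 89.4, 227, 215 and 236 TPM in C57 adults. All 4 kidney groups overlapped, and replicate 4 was the lowest library in both Hap-I groups. Over the 16 libraries the median was 145 TPM. By mean level Nox4 ranked above 95.2% of the 12923 genes that had at least 1 TPM in 4 or more of these libraries. In the neuron-rich libraries Nox4 was 0.878, 1.43, 1.41 and 1.76 TPM in aged and 0.237, 1.00, 0.718 and 1.01 TPM in adult Hap-I mice. No neuron-rich library reached the lowest kidney library.

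Cyba, the membrane partner that both NOX4 and CYBB need, had the highest level of the 8 genes in every kidney group (chr8:122424776-122432930, minus strand). It had 436, 559, 848 and 629 TPM in aged Hap-I mice on western diet, 555, 543, 689 and 777 TPM in diet-fed adult Hap-I mice, 758, 692, 677 and 743 TPM in diet-fed adult Hap-II mice, and 708, 362, 379 and 474 TPM in C57 adults. The Hap-II group was the tightest, and 3 of the 4 C57 libraries lay below every Hap-II library. In the neuron-rich libraries Cyba stayed between 7.84 and 12.5 TPM in aged and between 8.21 and 13.7 TPM in adult Hap-I mice. Cyba per Nox4 had a median of 4.38 in diet-fed aged Hap-I mice, 6.03 in diet-fed adult Hap-I mice, 5.27 in diet-fed Hap-II mice and 1.88 in C57 adults. Replicate 1 of the C57 group stood apart with a ratio of 7.92, since it had the least Nox4 and the most Cyba of its group.

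Cybb, the catalytic chain of the phagocyte oxidase, was expressed at a few TPM (chrX:9435252-9487771, minus strand). It had 6.66, 5.79, 5.52 and 2.01 TPM in aged Hap-I mice on western diet, against 3.92, 1.56, 1.45 and 0.436 TPM in diet-fed adult Hap-I mice. Adult diet-fed Hap-II mice had 6.26, 2.33, 2.04 and 2.59 TPM, and C57 adults had 2.85, 4.36, 3.25 and 2.15 TPM. Most aged libraries were high, but the aged group overlapped each of the other kidney groups. Per molecule of Cybb the kidney libraries carried 21.2 to 110 of Nox4. The neuron-rich libraries had 0.443, 0.570, 0.315 and 1.18 TPM of Cybb in aged and 0.0933, 0.308, 0.0788 and 0.196 TPM in adult Hap-I mice, and every aged library was above every adult one, as for 10.5% of the genes tested there.

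The 3 cytosolic members were also low. Ncf1, the organizer subunit that carries the activation signal (chr5:134220053-134229625, minus strand), had 3.10, 2.11, 1.79 and 0.994 TPM in aged Hap-I mice on western diet, 1.25, 0.486, 0.468 and 0.345 TPM in diet-fed adult Hap-I mice, 2.00, 2.04, 1.32 and 0.897 TPM in diet-fed Hap-II mice, and 2.46, 1.69, 1.498 and 2.02 TPM in C57 adults. The adult Hap-I group was lowest, with no library as high as the lowest C57 library, as for 55.3% of all genes in that comparison.

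Ncf4, a regulatory subunit that binds a membrane phosphoinositide (chr15:78244801-78262580, plus strand), had 8.35, 3.92, 3.19 and 1.98 TPM in diet-fed aged Hap-I mice, against 2.34, 1.06, 1.504 and 0.467 TPM in adult ones. It had 3.12, 1.66, 1.47 and 3.06 TPM in diet-fed Hap-II mice, and 6.30, 2.09, 1.08 and 1.88 TPM in C57 adults. All 4 groups overlapped, and replicate 1 of the aged and C57 groups stood above all other libraries.

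Rac2, the blood-cell Rac GTPase of the phagocyte oxidase (chr15:78559167-78572783, minus strand), had 3.75, 2.59, 3.23 and 3.13 TPM in diet-fed aged Hap-I mice, against 1.76, 1.204, 0.763 and 0.578 TPM in adult ones. Here the aged and adult groups did not overlap. Diet-fed Hap-II mice had 3.76, 1.18, 0.815 and 1.05 TPM, and C57 adults had 6.04, 2.05, 1.76 and 2.33 TPM. Replicate 1 was the highest library in both.

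Nos1, the neuronal synthase (chr5:117781032-117958840, plus strand), was near 0 in kidney. It did not exceed 0.350 TPM in aged Hap-I mice on western diet, 0.104 TPM in diet-fed adult Hap-I mice, 0.135 TPM in diet-fed Hap-II mice or 0.327 TPM in C57 adults. None of the 16 kidney libraries reached 1 TPM, so Nos1 was left out of their fit by the filter on low values. With no filter its log2 difference from C57 adults was -0.23 in diet-fed adult Hap-I mice (limma adjusted p = 0.0281) and -0.19 in diet-fed Hap-II mice (0.0771). That setting called 8668 genes in Hap-I and 5153 in Hap-II mice, and Nos1 was not fitted under another scaling there. The neuron-rich libraries had 20.9, 22.2, 16.4 and 25.9 TPM in aged and 15.7, 27.8, 18.4 and 26.2 TPM in adult Hap-I mice, with the ages fully interleaved. Exons of Nos1 overlap Gm26995 on the opposite strand.

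Nos3, the endothelial synthase (chr5:24364810-24384474, plus strand), had 1.89, 1.78, 2.32 and 2.12 TPM in aged Hap-I mice on western diet, against 1.57, 0.785, 0.825 and 0.786 TPM in adult ones. Diet-fed Hap-II mice had 1.76, 1.18, 0.660 and 1.47 TPM, against 2.81, 2.91, 2.20 and 2.62 TPM in C57 adults. The aged group lay above the adult Hap-I group without overlap, and both adult western diet groups lay below C57 adults without overlap, as 55.3% of all genes did in Hap-I and 26.7% in Hap-II mice. The neuron-rich libraries had 2.50 to 3.54 TPM in aged and 2.94 to 3.85 TPM in adult Hap-I mice. Exons of Nos3 overlap Atg9b and Gm15587 on the opposite strand. Atg9b was at 0.430 TPM or less in every kidney library and at 2.01 to 5.36 TPM in the neuron-rich ones. The library kit was stranded per the labels, but whether strand was used in quantification is not given in the sources used here, so reads of overlapping partners may not be separated.

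**Figure D1:**
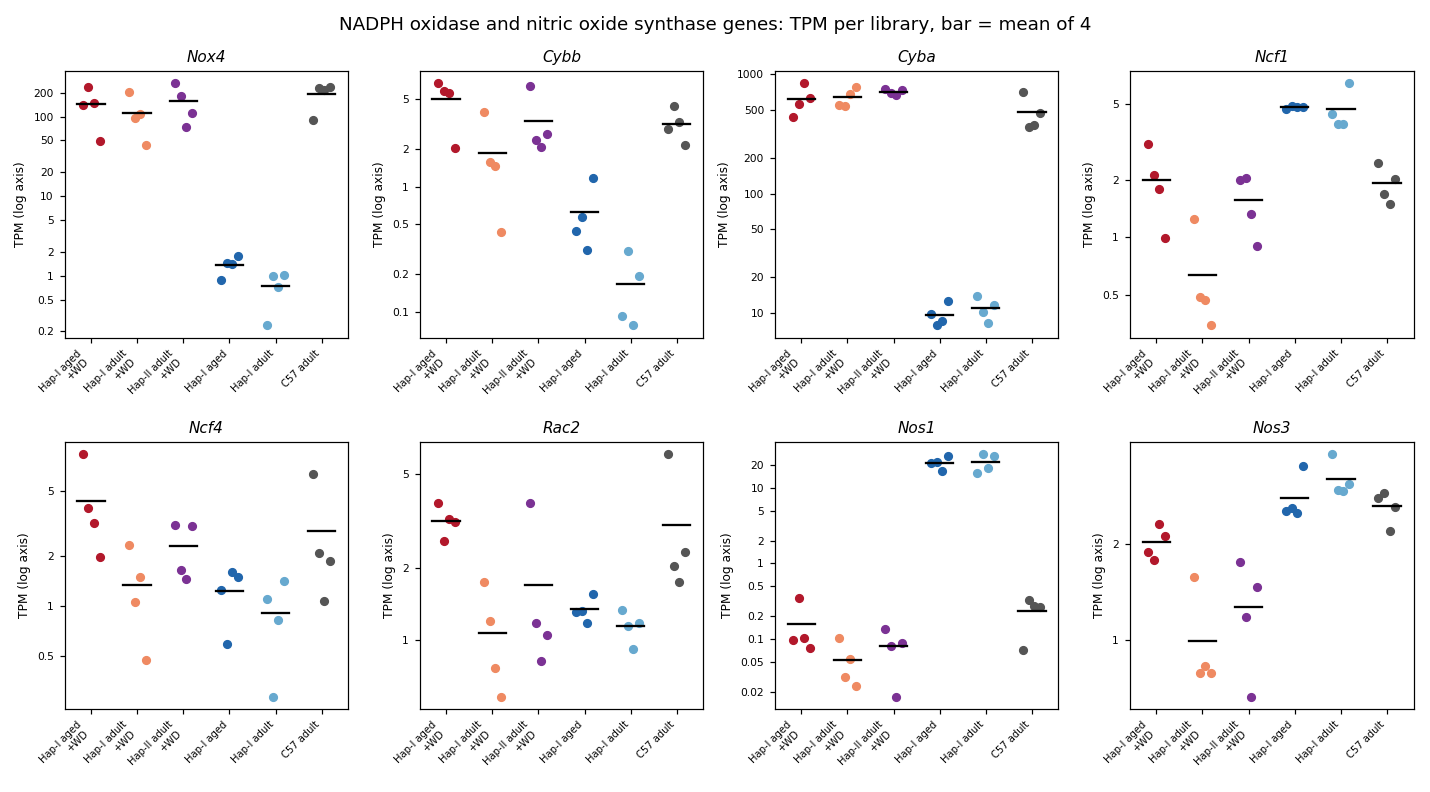
TPM of each of the 8 genes (vertical log axis, TPM) in every library of the 6 groups (horizontal axis), with points for libraries and bars for the mean of 4. Nox4 and Cyba stand above 40 TPM in the 4 kidney groups and below 14 TPM in the neuron-rich groups, Nos1 shows the opposite order, and the other 5 genes stay below 9 TPM throughout.

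The rest of both families was weaker or ubiquitous. Nox1, the colon-type oxidase, stayed at or below 0.342 TPM in every library, and Duox1 and Duox2, the dual oxidases of thyroid and airway, at or below 0.154 and 0.0830 TPM. Nos2, the inducible synthase, had 0.0923 to 0.226 TPM in aged Hap-I mice on western diet, 0.0675 to 0.164 TPM in diet-fed adult Hap-I mice and 0.290 to 0.474 TPM in C57 adults. It was listed at 0 in all 4 Hap-II libraries, as was Duox2. Rac1, the ubiquitous relative of Rac2, averaged 136 ± 34.0 TPM in diet-fed aged Hap-I mice, 104 ± 14.2 TPM in adult ones, 119 ± 32.2 TPM in diet-fed Hap-II mice and 171 ± 28.9 TPM in C57 adults (SD, n = 4 each). Rac1 exceeded Rac2 by 21.5 to 150 times in the kidney libraries.

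Aged and adult Hap-I mice, both on western diet, were compared to ask how age affects these genes under the diet. The 4 members of the phagocyte oxidase other than Cyba, and Nos3, had higher mean levels in aged mice, while Nox4 and Cyba differed little. Cybb averaged 4.99 ± 2.05 TPM in aged mice and 1.84 ± 1.47 TPM in adults, Ncf1 2.00 ± 0.869 and 0.636 ± 0.411 TPM, Rac2 3.18 ± 0.476 and 1.08 ± 0.524 TPM, and Nos3 2.03 ± 0.238 and 0.992 ± 0.387 TPM (SD, n = 4 each). No member passed the threshold. limma was fitted to log2(TPM + 1) over the 16 kidney libraries, with Benjamini-Hochberg adjustment over all 12923 genes, and 0 of 7 members had an adjusted p under 0.05, where 4 genes did in all (0.031%). At an unadjusted p under 0.05 there were 5 of 7 members and 2080 genes (16.1%).

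The fitted log2 differences on that scale, which understates changes of weak genes, were 1.13 ± 0.378 for Cybb (SE; limma adjusted p = 0.191), 0.86 ± 0.244 for Ncf1 (0.155), 1.13 ± 0.393 for Ncf4 (0.204), 1.04 ± 0.324 for Rac2 (0.173) and 0.62 ± 0.196 for Nos3 (0.176). They were 0.35 ± 0.514 for Nox4 (0.688) and -0.078 ± 0.230 for Cyba (0.851). The median of all genes was 0.32, and 10628 of 12923 genes were higher in aged mice. Against that shift Cybb stood at percentile 97.8 of all differences, Ncf4 at 97.7, Rac2 at 96.9, Ncf1 at 93.5, Nos3 at 81.5, Nox4 at 54.0 and Cyba at 12.9. Rac2 and Nos3 did not overlap between the ages, which was so for 6.18% of genes in that direction. Calls depended on how the spread was estimated. Over all 24 libraries Ncf1 (adjusted p = 0.0324), Rac2 (0.0404) and Nos3 (0.0372) passed, among 443 genes called. With array weights Cybb (0.0187), Ncf1 (0.0151), Rac2 (0.0161) and Nos3 (0.0157) passed, among 2199 genes called, against 4 in the fit above. Under median-of-ratios rescaling the Nox4 difference was -0.071 and that of Cyba -0.50, and Nos3 stood at 0.41 under that scaling and 0.32 under quantile scaling.

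Markers of other cell types and of sex moved with these differences. All 12 phagocyte markers and all 10 endothelial markers were higher in aged mice, with median differences of 1.02 and 0.95, and 0 of each passed the threshold. The phagocyte sum ranged from 151 to 527 TPM in aged and from 61.0 to 224 TPM in adults, and the endothelial sum from 247 to 338 and from 142 to 236 TPM. Lymphocyte markers summed to 12.01 to 25.8 TPM in aged and 4.73 to 10.8 TPM in adults. Measured against the mean of the phagocyte markers, the aged minus adult difference was 0.040 for Cybb (exact permutation p = 0.80), 0.035 for Ncf4 (exact p = 0.857), -0.055 for Rac2 (exact p = 0.8286) and -0.23 for Ncf1 (exact p = 0.171). Measured against the endothelial markers, that of Nos3 was -0.21 (exact p = 0.143), and against the proximal tubule markers that of Nox4 was -0.22 (exact p = 0.571). These two-sided tests were 6 of 24, none had an adjusted p below 0.686, and 4 against 4 libraries allow no exact p below 0.0286. All 4 Y-linked genes were lower in aged mice, with a median difference of -0.59 and 0 called. With their mean as a covariate the age differences were 0.97 for Cybb, 0.73 for Ncf1, 1.02 for Ncf4, 0.94 for Rac2 and 0.57 for Nos3, with adjusted p between 0.185 and 0.299, and 0.10 for Nox4. In whole tissue, more cells of a type and more RNA per cell cannot be told apart.

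**Figure D2:**
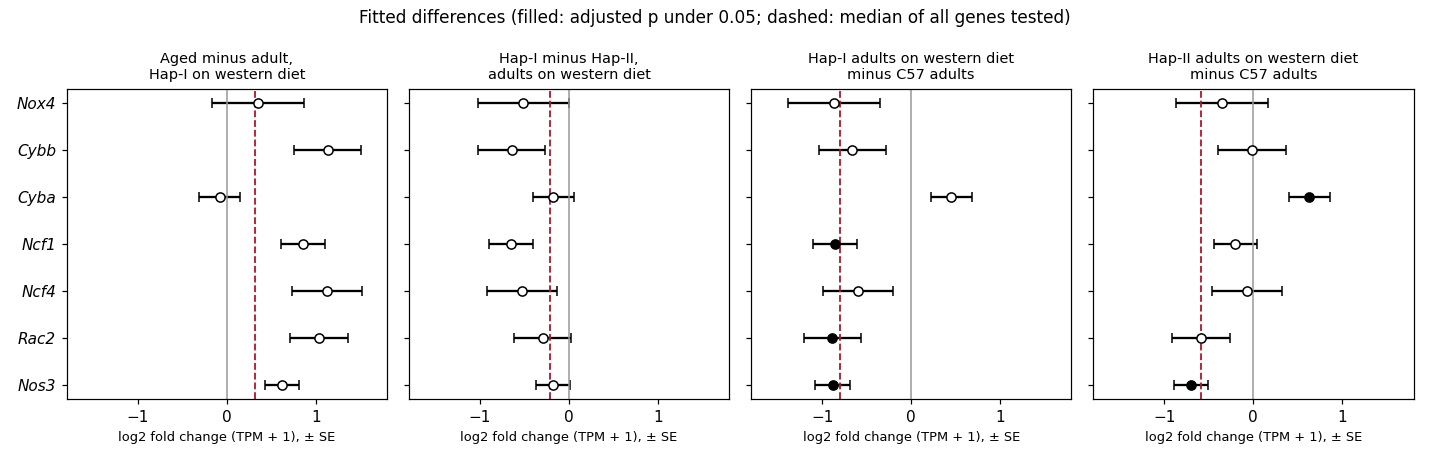
Fitted log2 differences of 7 members on the log2(TPM + 1) scale (points, bars ± SE) in 4 comparisons of the kidney libraries, filled where the adjusted p was under 0.05, with the median of all genes dashed. Cyba is the member to the right of that median in both comparisons with C57 adults by more than its SE, at 0.45 and 0.63, while Ncf1, Rac2 and Nos3 lie close to the median in the first.

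Members were set against cell type markers over the 16 kidney libraries, in 28 relations with 100000 permutations each. The permutations shuffled all 16 libraries across the groups, so their p values also reflect differences between groups. Cybb followed the mean of the 12 phagocyte markers with Pearson's r = 0.926 (permutation p = 1e-05, the smallest they can give, adjusted 0.00014) and Spearman's rho = 0.915 (p = 1e-05, adjusted 0.00028). Without the 2 libraries farthest from the median of the markers r was 0.889, and within the 12 western diet libraries it was 0.952. Nos3 followed the 10 endothelial markers with r = 0.954 (p = 1e-05, adjusted 0.00014) and rho = 0.921 (p = 2e-05, adjusted 0.00028), with r = 0.933 without the 2 farthest libraries and 0.958 within the western diet libraries. With group means removed r was 0.930 for Cybb and 0.821 for Nos3.

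Ncf1, Ncf4 and Rac2 followed the phagocyte markers with r = 0.844, 0.794 and 0.808, all with an adjusted permutation p of 0.0012 or less, and with rho = 0.809, 0.797 and 0.803 (adjusted p = 0.00182 each). Without the 2 farthest libraries their r was 0.802, 0.726 and 0.805, and with group means removed it was 0.764, 0.682 and 0.613. Nox4 followed the 10 proximal tubule markers less closely, with r = 0.728 (permutation p = 0.00206, adjusted 0.00524), rho = 0.791 (p = 0.00052, adjusted 0.00182) and r = 0.670 without the 2 farthest libraries. The r with the median of all kept genes in each library was 0.794 for Nox4 and 0.8035 for Nos3, and it was 0.564 for Cybb, 0.599 for Ncf1, 0.265 for Ncf4 and 0.543 for Rac2. Members also followed markers of other cell types. Rac2 had r = 0.726 with the endothelial markers. Within the western diet libraries that r was 0.910, above 0.870 with the phagocyte markers. With the phagocyte markers Nos3 had r = 0.752 and Nox4 0.640, below their r with endothelial and proximal tubule markers over the 16 libraries. For Nox4 that order did not hold with group means removed, where r was 0.766 with the phagocyte and 0.732 with the proximal tubule markers. Within the western diet libraries its r was 0.729 and 0.737. Cyba followed neither the proximal tubule markers (r = -0.32, p = 0.223, rho = -0.27, p = 0.318) nor the phagocyte markers (r = -0.32, p = 0.219, rho = -0.25, p = 0.342). With group means removed these r were 0.14 and -0.21. These points share library composition, and values on the TPM scale are shares of a fixed total.

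**Figure D3:**
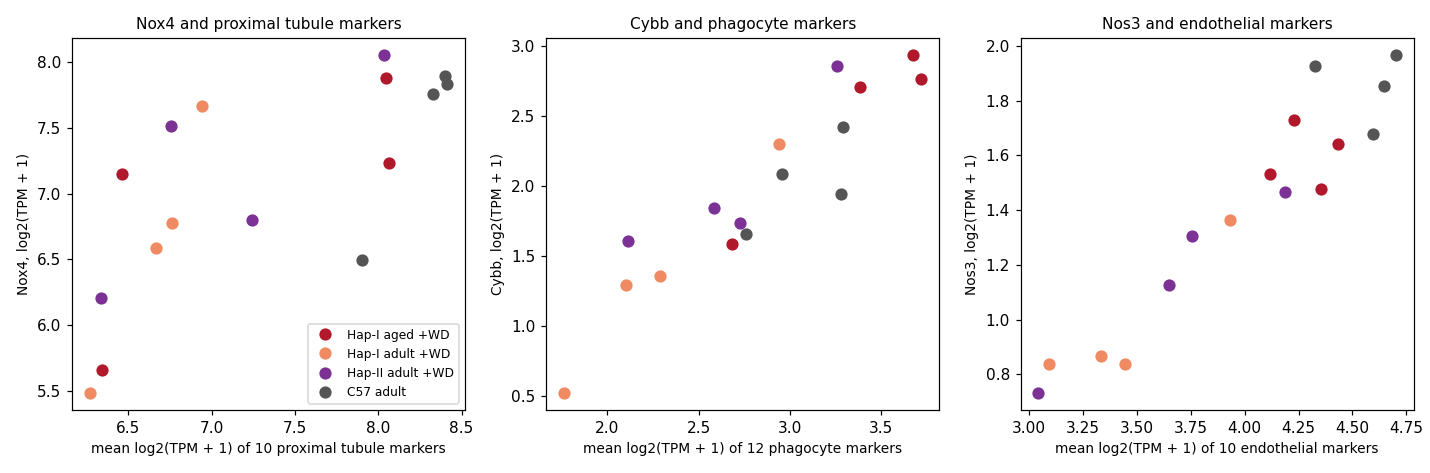
Nox4, Cybb and Nos3 (vertical axes, log2(TPM + 1)) against the mean log2(TPM + 1) of 10 proximal tubule, 12 phagocyte and 10 endothelial markers (horizontal axes), 1 point per kidney library, 16 in all. The points of Cybb and Nos3 lie along a line (r = 0.926 and 0.954), while those of Nox4 scatter (r = 0.728) and include a C57 library with low Nox4 at a high marker level.

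The genes most like each member in these 16 libraries, by Pearson's r over 12011 kept genes, are given as a description. For Cybb they were Mpeg1 (r = 0.978), Cx3cr1 (0.953) and Adgre1 (0.950), which are macrophage genes and of which the last pair were markers on the list used above. For Nos3 they were Mmrn2 (0.960), an endothelial matrix protein, Kctd10 (0.948) and Csf1 (0.945). For Ncf4 they began with Ptprc (0.889), the pan-leukocyte antigen CD45, for Ncf1 with Itgb7 (0.932), a leukocyte integrin, and for Rac2 with Sash3 (0.958), a lymphocyte adaptor. For Nox4 they were Plekha1 (0.970), Vegfa (0.960) and Cpne4 (0.956). For Cyba they were Atox1 (0.898), a copper chaperone, Ddt (0.880) and Mrpl12 (0.860), a mitochondrial ribosomal protein.

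Adult Hap-I and adult Hap-II mice, both on western diet, were compared to ask whether the haplotype changes these genes. All 7 tested members had lower fitted values in Hap-I mice, as did 10726 of all 12923 genes. Ncf1 averaged 0.636 ± 0.411 TPM in Hap-I mice and 1.56 ± 0.554 TPM in Hap-II mice, Cybb 1.84 ± 1.47 and 3.31 ± 1.98 TPM, and Nox4 112 ± 65.8 and 157 ± 84.6 TPM (SD, n = 4 each). The groups of every member overlapped (2.53% of all genes did not). The log2 differences were -0.65 ± 0.244 for Ncf1, -0.64 ± 0.378 for Cybb, -0.53 ± 0.393 for Ncf4, -0.51 ± 0.514 for Nox4, -0.30 ± 0.324 for Rac2, -0.18 ± 0.196 for Nos3 and -0.18 ± 0.230 for Cyba, with a median of -0.22 over all genes. By limma 0 of 7 members were called (adjusted p between 0.817 and 0.825), where 10 genes were (0.0774%). At an unadjusted p under 0.05 there was 1 member, Ncf1, and 421 genes (3.26%). Under median-of-ratios rescaling the Cyba difference was 0.10 with an adjusted p of 0.995.

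Adult Hap-I mice on western diet were then set against C57 adults, and Ncf1, Rac2 and Nos3 fell. Ncf1 averaged 0.636 ± 0.411 TPM in diet-fed Hap-I mice and 1.92 ± 0.423 TPM in C57 adults, Rac2 1.08 ± 0.524 and 3.04 ± 2.01 TPM, and Nos3 0.992 ± 0.387 and 2.63 ± 0.315 TPM (SD, n = 4 each). The log2 changes were -0.85 ± 0.244 for Ncf1 (limma adjusted p = 0.00813), -0.89 ± 0.324 for Rac2 (0.0267) and -0.88 ± 0.196 for Nos3 (0.00249). That is 3 of 7 members, against 59.7% of all genes called lower and 2.28% called higher, a share below the background. Of the 8009 genes called, 3.67% were higher, and with the libraries rescaled by median of ratios or quantiles 55.7% and 51.6% were. The median gene had a log2 change of -0.80, and the 3 members stood at percentiles 46.2, 43.8 and 44.2 of all changes, close to it.

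Markers of the cells that carry these genes were lower as well. Of the 10 endothelial markers 9 fell, with a median of -1.15, and all 12 phagocyte markers were below 0, with a median of -0.74 and 4 called. Of 7 neutrophil markers 3 could be tested, S100a8, S100a9 and Csf3r, with a median of 2.27. S100a8 and S100a9 rose, and Csf3r was not above 0. Ly6g, Mpo, Elane and Camp did not pass the filter on low values. Measured against the phagocyte markers, the difference from C57 adults was -0.057 for Ncf1 (exact permutation p = 0.80) and -0.089 for Rac2 (exact p = 0.80), and the part of the markers in these calls was not tested.

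Under median-of-ratios or quantile scaling, which brings the median gene to -0.011 and -0.0080, none of the 3 passed: Ncf1 was at -0.36 and -0.22, Rac2 at -0.30 and -0.17 and Nos3 at -0.26 and -0.15. The Rac2 call was also lost without Hap-I replicate 3 (-0.82, adjusted p = 0.0635) or 4 (-0.77, 0.080), with no filter (-0.89, 0.0507) and with mitochondrially encoded genes removed (-0.82, 0.0712). Without C57 replicate 1, the library with the most lymphocyte transcripts, it stood at -0.58 (0.095). The mean log2(TPM + 1) of the 8 lymphocyte markers was 2.39 in that library and 0.906 to 1.23 in the other C57 libraries. With the mean of the Y-linked genes as a covariate Nos3 kept its call, while Ncf1 (-0.48, adjusted p = 0.115) and Rac2 (-0.59, 0.20) did not. Ncf1 (-0.805, 0.0501) and Rac2 (-0.864, 0.0872) also did not pass without the library with the fewest genes in each group.

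The remaining members did not pass against C57 adults in the fit over the 16 kidney libraries, but some passed under alternative settings. The log2 differences were -0.87 ± 0.514 for Nox4 (limma adjusted p = 0.147), -0.66 ± 0.378 for Cybb (0.133), -0.60 ± 0.393 for Ncf4 (0.185) and 0.45 ± 0.230 for Cyba (0.0949). Cyba had the opposite sign from 11437 of 12923 genes and stood at percentile 96.0. Nox4 stood at 0.15 under median-of-ratios scaling, and Cybb at 0.12 and Ncf4 at 0.11 under quantile scaling, so their direction depended on the scaling. Cyba passed without C57 replicate 1 (0.66, adjusted p = 0.0164), under median-of-ratios (1.47, 0.00761) and quantile scaling (0.66, 0.0336), with mitochondrially encoded genes removed (0.70, 0.0154) and with array weights (0.63, 6.31e-05). Without Hap-I replicate 1 Cybb passed as well (-0.97, 0.0311). With array weights Nox4 (-1.05, adjusted p = 7.76e-05) and Cybb (-0.725, 0.000566) passed too, both lower. That setting called 10994 genes in all. With the Y-linked covariate Cyba stood at 0.31 (adjusted p = 0.361).

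Adult Hap-II mice on western diet had more Cyba and less Nos3 than C57 adults. Cyba averaged 718 ± 39.2 TPM in Hap-II mice and 481 ± 160 TPM in C57 adults, a log2 change of 0.63 ± 0.230 (limma adjusted p = 0.0404), where 2.73% of all genes were called higher. Nos3 averaged 1.27 ± 0.470 TPM in Hap-II mice and 2.63 ± 0.315 TPM in C57 adults, a log2 change of -0.70 ± 0.196 (adjusted p = 0.0149), where 36.9% of all genes were called lower. Of all calls 6.89% were higher, and 56.9% and 51.8% under median-of-ratios and quantile scaling. The median gene had a change of -0.59, close to that of Nos3, which did not pass under median-of-ratios (-0.24) or quantile scaling (-0.14) or without Hap-II replicate 3 (-0.56, adjusted p = 0.0609). The Cyba call held in 1 of 8 fits that left out a library, that without C57 replicate 1 (0.83, adjusted p = 0.0108), and in the other 7 its change lay between 0.51 and 0.66 with adjusted p between 0.0546 and 0.123. Cyba also passed under median-of-ratios (1.37, 0.015) and quantile scaling (0.71, 0.0316) and with mitochondrially encoded genes removed (0.77, 0.0177). It did not pass with no filter (0.63, 0.0594). Without the library with the fewest genes in each group neither Cyba (0.54, 0.205) nor Nos3 (-0.52, 0.145) passed. With the Y-linked covariate neither Cyba (0.53, 0.132) nor Nos3 (-0.60, 0.0581) passed. Of the endothelial markers 8 of 10 fell (median -0.89), and of the phagocyte markers 2 of 12 (median -0.41). Of the 3 neutrophil markers tested (S100a8, S100a9 and Csf3r) 2 rose, with a median of 2.37. The differences of Nox4, Cybb, Ncf1, Ncf4 and Rac2 were -0.35, -0.016, -0.20, -0.074 and -0.59, with adjusted p between 0.146 and 0.973. Under median-of-ratios rescaling Nox4 (0.38), Cybb (0.50), Ncf1 (0.23) and Ncf4 (0.38) were above 0, as were Cybb (0.57), Ncf1 (0.33) and Ncf4 (0.47) under quantile scaling, and none of these passed. Nox4 passed as lower with array weights (-0.83, adjusted p = 0.0135), a setting that called 9706 genes. Rac2 passed as lower without Hap-II replicate 1 (-0.90, adjusted p = 0.0188). Hap-I and Hap-II mice were set against the same C57 libraries, so these results are not independent of each other.

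Transcript length moved with the difference between western diet and C57 libraries. Genes whose longest annotated transcript was under 1 kb had a median log2 change of -0.059 in Hap-I mice and 0.067 in Hap-II mice, and those over 8 kb had -1.05 and -0.80. The longest transcript of Cyba has 744 bases, those of Rac2 and Nos3 have 3038 and 4132 bases, and that of Ncf1 has 2882 bases. The Cyba changes of 0.45 and 0.63 were above the median of the shortest class, and the part of transcript length in them was not tested. Measured against the proximal tubule markers, Nox4 in Hap-II mice exceeded that in C57 adults by 0.82 (exact permutation p = 0.0286, the smallest possible, adjusted 0.686), and in Hap-I mice by 0.74 (exact p = 0.114, adjusted 0.686). All 10 proximal tubule markers were lower in both groups, with median changes of -1.36 and -1.01, and 8 and 4 of them passed. Measured against the endothelial markers, the Nos3 differences were 0.23 (exact p = 0.143) and 0.21 (exact p = 0.20).

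The wider pathway was read from lists of 22 oxidase partners and homologues, 21 genes of nitric oxide partners and cofactor supply and 8 nitric oxide targets, of which 13, 18 and 4 could be tested in the kidney libraries. For age and for haplotype on western diet, limma called 0 genes of each list. The median age differences were 0.42, 0.31 and 0.30, beside 0.32 over all genes, and the median haplotype differences were -0.29, -0.25 and 0.0028, beside -0.22. In diet-fed adult Hap-I mice against C57 adults 9 of 13 oxidase partners, 12 of 18 supply genes and 4 of 4 targets fell and 0 rose, with medians of -0.72, -0.78 and -0.71 beside -0.80 over all genes, of which 59.7% fell. In Hap-II mice 5, 3 and 3 fell and 1 rose, where 36.9% of all genes fell. Under median-of-ratios rescaling the Hap-I counts were 1, 3 and 0 lower and 1, 4 and 0 higher, and the Hap-II counts 1, 2 and 0 lower and 1, 3 and 0 higher.

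Among the oxidase partners, the gene that rose was Rap1a, a small GTPase found with the phagocyte oxidase, at 20.7 ± 2.79 TPM in Hap-II mice and 12.9 ± 0.986 TPM in C57 adults (SD, n = 4 each; log2 0.64, limma adjusted p = 0.0222). Rap1a was also called higher in Hap-II mice under median-of-ratios (1.32) and quantile scaling (1.28). Sh3pxd2a, a scaffold relative of Ncf1, fell in Hap-I (-1.30) and Hap-II mice (-1.23) and kept its call under both scalings. Hvcn1, the proton channel that balances oxidase charge, changed by -1.11 and -1.04, Prkcd, a kinase that phosphorylates NCF1, by -1.51 and -1.03, and Arhgdia, an inhibitor that holds Rac in the cytosol, by -1.37 and -1.08. None of these 3 passed under median-of-ratios rescaling, where their signs were kept. Under quantile scaling Arhgdia passed in Hap-I (-0.81, adjusted p = 0.0242) and Hap-II mice (-0.72, 0.0483) and Prkcd in Hap-I mice (-0.71, 0.0271). Cybc1, the chaperone of the CYBB-CYBA pair, changed by -0.72 and -0.64, but by 0.21 and 0.032 under median-of-ratios rescaling. In Hap-I mice Vav1 (-0.79), an activator of Rac, and Arhgdib (-1.198), the blood-cell relative of Arhgdia, fell without passing under either scaling, and Rac1 (-0.71) fell but stood at 0.31 under median of ratios.

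Among the supply genes, Slc7a1, an arginine transporter, changed by -1.49 in Hap-I and -1.33 in Hap-II mice, and Cav1, the caveolin that inhibits NOS3, by -2.45 and -1.86, and both kept these calls under both scalings. Cav1 averaged 7.46 ± 3.89 TPM in Hap-I mice and 11.6 ± 6.30 TPM in diet-fed Hap-II mice, against 42.1 ± 12.4 TPM in C57 adults (SD, n = 4 each). Hsp90aa1, a chaperone that binds NOS3, changed by -1.76 and -1.22, and its call in Hap-II mice was lost under median of ratios (-0.48). Ddah2 (-1.05), which breaks down an inhibitor of the synthases, Nosip (-0.93), Arg2 (-2.73), an arginase that competes for arginine, and Slc7a2 (-0.59), a further arginine transporter, fell in Hap-I mice. None of these 4 passed under either scaling, and under median of ratios Nosip stood at 0.0072.

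Among the targets, Vasp (-1.14 and -0.87), a substrate of the cGMP-dependent kinase, Pde3a (-0.60 and -0.71), a phosphodiesterase that cGMP inhibits, and Gucy1a1 (-0.67 and -1.03), a subunit of the nitric oxide receptor, fell in Hap-I and Hap-II mice, and Gucy1b1 (-0.76), the other subunit, fell in Hap-I mice. No target passed under either scaling, and Gucy1a1 in Hap-I mice stood at 0.18 and 0.29 there, with Gucy1b1 at 0.061 and Pde3a at 0.0029 under quantile scaling.

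The comparisons of Hap-I mice with and without western diet, and of Hap-I mice without it with C57 adults, set kidney against neuron-rich libraries and are given as such. limma called 6 of 8 members between adult Hap-I mice with and without the diet, where it called 80.2% of 15200 genes, 7 of 8 between aged ones (81%), and 7 of 8 between adult Hap-I mice without the diet and C57 adults (71.3%). Higher calls were 21.1%, 25.3% and 64% of all calls, and 52.1%, 51.2% and 49% under quantile scaling. Nox4 differed by 5.85 ± 0.459 with against without the diet in adults and by 5.75 ± 0.459 in aged mice, and Cyba by 5.76 ± 0.217 and 5.84 ± 0.217 (adjusted p between 6.23e-17 and 1.08e-10). Nos1 differed by -4.41 ± 0.160 and -4.26 ± 0.160 (adjusted p = 3.62e-17 and 7.04e-17). Set against C57 kidney, the neuron-rich libraries of adult Hap-I mice differed by -6.72 for Nox4, -5.31 for Cyba and 4.19 for Nos1.

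Ncf1 was higher in each neuron-rich library than in any kidney library, and the share of all genes separated in this way was not counted. It had 4.69, 4.90, 4.83 and 4.84 TPM in aged and 4.42, 3.95, 3.92 and 6.46 TPM in adult Hap-I mice, and no kidney library exceeded 3.10 TPM. Its partner Cybb went the other way, so that Ncf1 per Cybb was 4.12 to 49.7 in the neuron-rich libraries and 0.311 to 0.940 in the kidney libraries. The Ncf1 exons overlap those of Gtf2ird2, which lies on the opposite strand and had 9.13 to 11.2 TPM in aged and 5.66 to 9.46 TPM in adult Hap-I mice without the diet, against at most 3.95 TPM in the kidney libraries. The part of that overlap in the Ncf1 level was not tested. The fitted Ncf1 difference with against without the diet was -1.81 ± 0.209 in adults (limma adjusted p = 5.43e-08) and -1.003 ± 0.209 in aged mice (0.000154). These differences stood at percentiles 32.5 and 49.2 of all genes, of which 80.2% and 81% were called. In aged mice the Ncf1 call was lost under median-of-ratios (-0.21, limma adjusted p = 0.375) and quantile scaling (0.073, 0.763). In adults it held under both (-1.06 and -0.68).

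**Figure D4:**
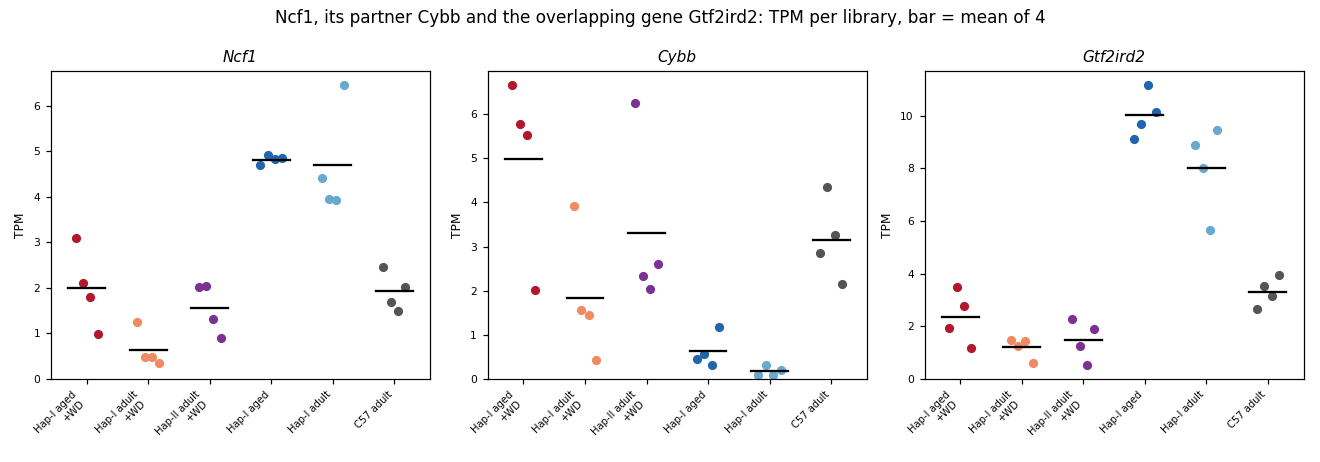
TPM (vertical axis from 0) of Ncf1, its oxidase partner Cybb and Gtf2ird2, which overlaps Ncf1 on the opposite strand, in every library of the 6 groups, with bars for the mean of 4. Ncf1 and Gtf2ird2 are highest in the neuron-rich libraries labelled Hap-I aged and Hap-I adult, and Cybb is lowest there.

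Aged and adult Hap-I mice without western diet were compared within the neuron-rich libraries. limma called 0 of 7 tested members, where it called 4 of 13497 genes (0.0296%), and at an unadjusted p under 0.05 there was 1 member, Nox4, and 2081 genes (15.4%). Nox4 averaged 1.37 ± 0.365 TPM in aged mice and 0.742 ± 0.363 TPM in adults, a log2 difference of 0.46 ± 0.197 (adjusted p = 0.310). Nos1 averaged 21.4 ± 3.90 and 22.0 ± 5.88 TPM (SD, n = 4 each; log2 -0.022 ± 0.196, adjusted p = 0.969). Cybb was below the filter, and its log2 difference with no filter was 0.45 ± 0.153 (adjusted p = 0.336). The age effect with minus without the diet was tested as an interaction over all 24 libraries. No member was called (4 of 15200 genes, 0.0263%), 3 members and 1523 genes had an unadjusted p under 0.05, and the smallest adjusted p of a member was 0.197 for Nos3 (0.77 ± 0.222).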

How the data were processed

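The authors deposited 1 table of TPM per gene and library, with Ensembl gene identifiers. Per the submitters' processing notes, kallisto, DESeq2 and GRCm38 were used, in roles and versions not stated. Of 30153 identifiers, 29732 matched a symbol in a GENCODE annotation of GRCm38. Deposited TPM summed to 904693 to 944019 per library, and 6366 genes were at 0 in all 24. TPM carry no depth. Members and lists were chosen with earlier results of these data known. No member shared more than 4.12% of its words of 31 bases with another gene. Genes at 1 TPM or more in at least 4 of the libraries fitted were kept, and log2(TPM + 1) was fitted per group with lmFit, contrasts.fit and eBayes with trend (R 4.3.3, limma 3.58.1; two-sided; Benjamini-Hochberg; threshold 0.05). Kidney comparisons used the 16 kidney libraries, age without diet its 8, and the rest all 24. Earlier processing of these data pooled all 24. The fit was tested on simulated data. Named pathway genes were those past the threshold in a kidney comparison, at most 8 per list by p, plus Rac1, Nox1, Duox1, Duox2 and Nos2; some genes of these lists are not reported here. Alternatives were another pseudocount, filter, scaling, array weights, a Y-linked covariate, other sets of fitted groups, a replicate block and each library left out.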

Additional observations from a re-analysis of the deposited data

Results flagged for a closer look

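In 4 of 48 groups of 4 libraries a member had 1 library far from the other 3, by Dixon's ratio of gap to range. Chance flags about 1 in 20 such groups. Nox4 in C57 replicate 1 was lowest at 89.4 TPM, against 215 to 236 TPM in the other C57 libraries (gap over range 0.903). The same library had the most Rac2, Ncf4 and lymphocyte transcripts of its group. Nos1 in aged Hap-I mice on western diet was highest in replicate 2 at 0.350 TPM (0.889), a level below the 1 TPM filter. Nos3 was highest in replicate 1 of adult Hap-I mice on western diet at 1.57 TPM, against 0.785 to 0.825 TPM in the other 3 (0.939). Nos3 was also highest in replicate 4 of aged Hap-I mice without the diet at 3.54 TPM, against 2.50 to 2.60 TPM (0.895).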

How the results depend on the processing

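TPM give no depth, so the precision of genes near 1 TPM (Cybb, Ncf1, Ncf4, Rac2 and Nos3) rests on 4 libraries per group alone. Over the members and all alternatives, 1096 of 1227 fitted values kept their direction and their side of the threshold, 43 lost and 24 gained a call, 59 changed sign without a call and 5 changed sign with one. These 5 were Rac2 (0.94) and Nos3 (0.076) between adult Hap-I mice with and without the diet under quantile scaling, and between aged ones Ncf1 (0.073) and Nos3 (0.65) under quantile and Nos3 (0.41) under median-of-ratios scaling. By construction both scalings move the median gene to near 0.

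Counts of called genes changed by over 1.5 times as follows, and the cause was not tested unless stated. For age on the diet (4 genes) array weights gave 2199, the fit over all 24 libraries 443, the 2 groups alone 2 and the replicate block 2. For haplotype (10) array weights gave 51, the replicate block 5 and leaving out the library with the fewest genes in each group, an alternative chosen after seeing the data, 4. For Hap-I against C57 (8009) median-of-ratios gave 4138, quantile scaling 3910, the Y-linked covariate 3284 and leaving out the poorest libraries 3936. For Hap-II against C57 (5127) these gave 2923, 2915, 1926 and 501, and array weights 9706. For age without the diet (4) a pseudocount of 0.1 gave 1, no filter 1, the Y-linked covariate 0 and the 24-library fit 65. For the interaction (4) a pseudocount of 0.1 gave 0, no filter 24, array weights 880, and a filter of 5 TPM, both scalings, removal of mitochondrially encoded genes and the Y-linked covariate 2 each.

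With 1 library left out the counts were 2 to 22 for age on the diet, 4 to 7 for haplotype, 6042 to 8104 for Hap-I and 1803 to 6961 for Hap-II against C57, 1 to 5 for age without the diet, 11769 to 12047 and 11868 to 12313 for the diet in adult and aged mice, 10196 to 10545 for Hap-I without the diet against C57, and 2 to 34 for the interaction. Libraries with the same title number were not paired: deviations of same-numbered western diet libraries correlated between -0.136 and 0.525. The replicate block moved the counts to 2 and 5, as above, and changed no call of a member.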
